A study of Mus musculus with 12 samples.

Results

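The genes that carry pyruvate into mitochondria, turn it into acetyl-CoA, run the tricarboxylic acid (TCA) cycle and exchange malate, aspartate and glutamate with it were compared between vitrified and fresh mouse ovarian follicles. They form a set of 32 genes matched by symbol: the mitochondrial pyruvate carrier, the pyruvate dehydrogenase complex with its kinases and a phosphatase, pyruvate carboxylase, enzymes of the cycle, the NADP-dependent isocitrate dehydrogenases, the malic enzymes, and the aminotransferases and dehydrogenases of the malate-aspartate shuttle and of glutamate entry. All 32 were among the 11806 genes of the authors' deposited table, and all 32 were among the 10963 genes that have an adjusted p there. The series holds 12 libraries, each from the RNA of a single follicle, of which 6 were fresh and 6 vitrified, that is, cooled into a glass-like solid for storage. Every follicle came from a 16-day-old mouse of the outbred CD-1 stock, was enclosed in 0.5% alginate and was grown singly for 8 days in the same medium with 10 mIU/mL recombinant follicle-stimulating hormone, 5 µg/mL insulin and 3 mg/mL serum albumin. The labels give no genotype, transgene or drug, and whether any follicles came from the same animal is not given.

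Pyruvate is carried across the inner mitochondrial membrane and is either oxidised to acetyl-CoA by pyruvate dehydrogenase or carboxylated to oxaloacetate. The TCA cycle then burns the acetyl group and gives NADH for respiration, while malic enzymes turn malate back into pyruvate and give NADPH or NADH. In the ovarian follicle this part of metabolism is shared between cell types, because the mouse oocyte uses glucose poorly and lives largely on pyruvate supplied by the granulosa cells around it.

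The table gives 1 pooled total, 1 fold change and 1 p per gene, so no value per follicle can be shown. Totals of all genes summed to about 23784000, of which the 32 genes held 0.22% and the predicted gene Gm10800 held 29.8% in the authors' deposited table. Markers of the expected cell types were looked up first. Granulosa markers had a median pooled total of 11034, with 10 of 11 in the table and a median log2 fold change of 0.01 over the 10 tested, of which 0 passed the threshold. At an unadjusted p under 0.05 there were 2 of these, or 20% against 7.02% of all tested genes. The 2 went opposite ways: Fshr, the receptor of follicle-stimulating hormone, at 0.67 and Fst, the activin-binding follistatin, at -0.82 per the authors' deposited table. Oocyte markers had a median total of 136, with 10 of 14 in the table and 8 tested, and all 8 had positive values (median 0.63, range 0.11 to 1.29), with 0 past the threshold and 0 at an unadjusted p under 0.05. Of 8 theca markers tested, 5 were positive and 3 negative (median 0.64), with 0 past the threshold. At an unadjusted p under 0.05 there were 4, or 50% against 7.02% of all tested genes. Of these 4, per the authors' deposited table, Aldh1a1 was at 1.19, Star at 1.60 and Insl3 at 2.70 on the log2 scale, and Fbln1 at -0.50. The 2 endothelial markers tested were both negative, and 0 of 4 immune markers were in the table. How far these cell types account for any value below was not tested. A follicle was lysed whole, so fewer cells of a type and less RNA per cell cannot be told apart.

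Me2, which encodes a mitochondrial malic enzyme that uses mainly NAD, was the 1 gene of the 32 to pass the threshold, an adjusted p of 0.05 over all genes. It rose 2.16-fold in vitrified follicles in the authors' deposited table. The call depends on the tails assumed for the test. Each deposited p was turned into a normal statistic, which was then placed on a t distribution with 10 degrees of freedom. This makes every p larger whatever the data, so that the adjusted p of Me2 was 0.62 and 0 of all genes passed. The loss was shared by every gene called at the deposited p, so it was not particular to Me2. The processing notes name DESeq2 but the sources do not give which test produced the deposited p, so this setting cannot decide the call. The other 31 genes did not pass, so that 0 were called lower, and 25 of the 32 had a log2 fold change smaller than 0.2 in size. The background was low: 58 of 10963 genes passed, or 0.529%, with 0.246% higher and 0.283% lower. One call in 32 is 3.12% of the set, a share that rests on a single gene. At an unadjusted p under 0.05 there were 2 genes, Me2 and Dlst, which is 6.25% of the set against 7.02% of all tested genes. In the set 20 genes were higher and 12 lower, or 62.5% higher against 46.8% of all tested genes, with a median log2 fold change of 0.07 against -0.02. Without Me2 the median was 0.06.

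**Figure D1:**
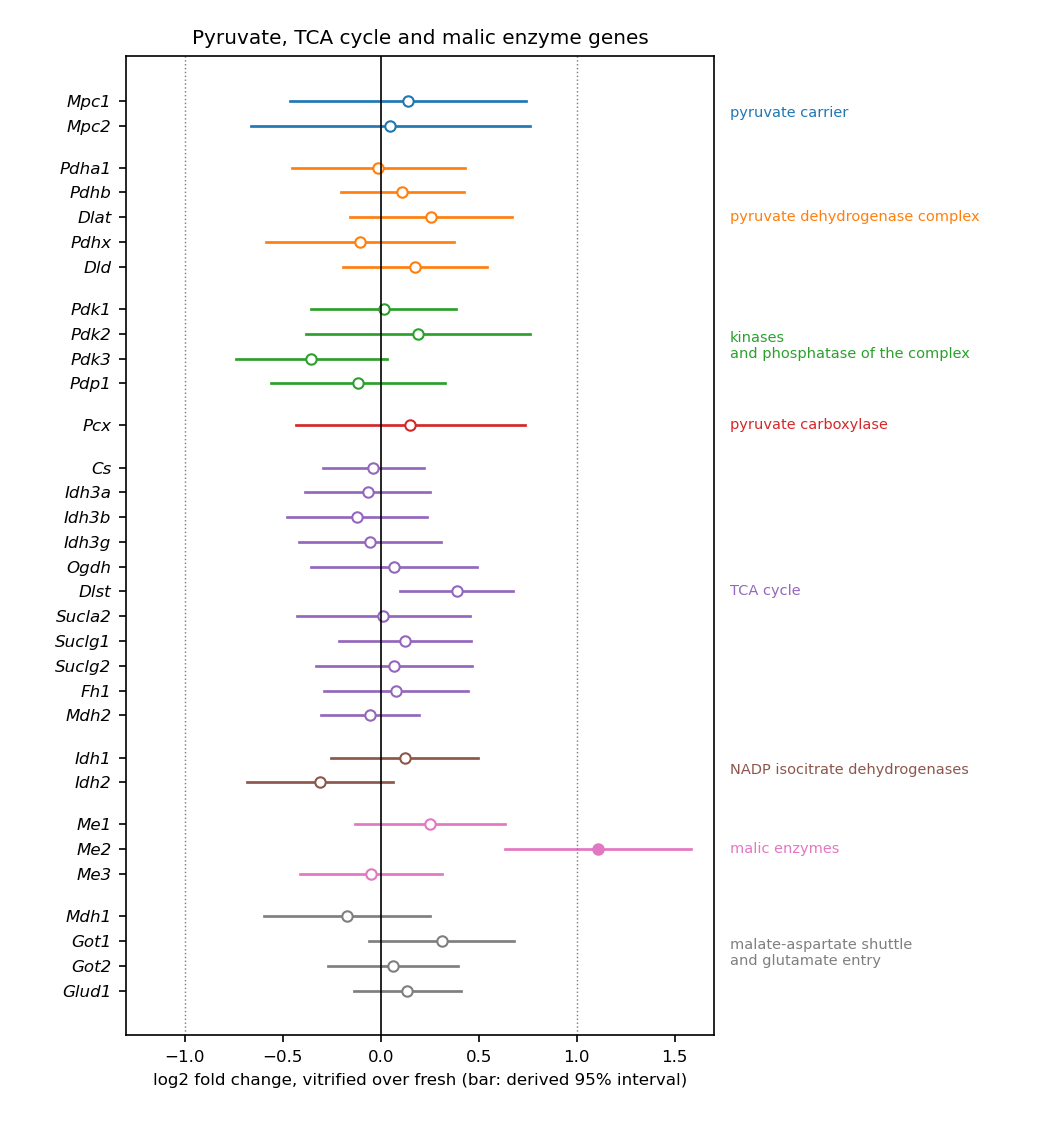
Log2 fold change of vitrified over fresh follicles (x axis) for each of the 32 genes (y axis, grouped by role). Circles are deposited fold changes, filled where the adjusted p is at most 0.05, bars are derived 95% intervals, and dotted lines mark 2-fold. Me2 stands at 1.11 to the right of every other gene, and 30 of the 32 bars cross 0.

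The malic enzymes differ in place and cofactor. Me1 is the cytosolic NADP enzyme that feeds NADPH to lipid synthesis, and Me2 and Me3 lie in mitochondria, Me3 using NADP. For Me2 the log2 fold change was 1.11 in the authors' deposited table, with a derived 95% interval of 0.64 to 1.58, or 1.55-fold to 3.00-fold. Its p was 4.5e-06 and its adjusted p 0.0033, per the authors' deposited table, which put it at rank 15 by p of the 10963 genes tested and at rank 6 among the 27 that rose. By size it was rank 12 of those 27. Per the authors' deposited table, Me1 stood at 0.25 (-0.13 to 0.64) and Me3 at -0.05 (-0.41 to 0.31) on the log2 scale, and neither passed. The interval of Me3 ended below that of Me2, and the upper end of the Me1 interval equalled the lower end of the Me2 interval to 2 decimals. The difference between these genes was not tested.

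The pooled total of Me2 was 2444 in the authors' deposited table, against 5447 for Me1 and 940 for Me3. Divided by the median length of the annotated coding transcripts, the level was 1656 per kb for Me1, 927 for Me2 and 210 for Me3. With the union of all annotated exons as length it was 1416, 337 and 64.3 per kb, so the order was the same under both lengths. Me1 shared 35.7% of its 50-base sequence windows with transcripts of other genes, mostly those of the predicted gene Gm7049, so its count is uncertain. For Me2 that share was 0%, and 0% of its exon bases overlapped another gene.

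**Figure D2:**
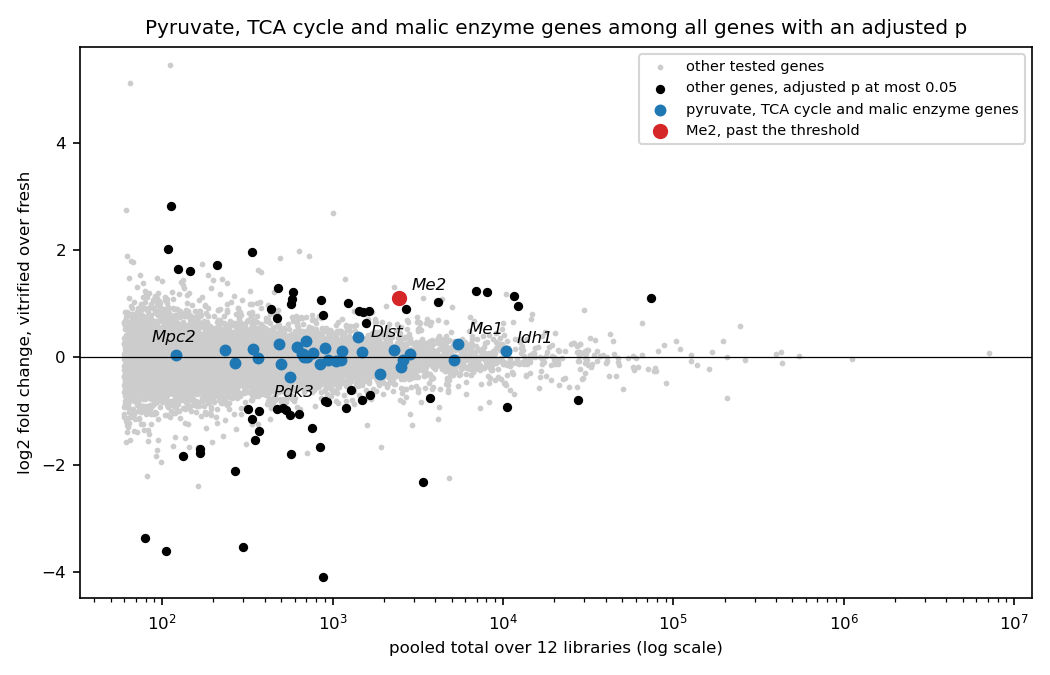
Pooled total over the 12 libraries (x axis, log scale) against log2 fold change (y axis) for all genes with an adjusted p. Grey points are other genes, black points other genes past the threshold, blue points the 31 genes of the set that did not pass, and the red point Me2. The blue points lie between -0.36 and 0.39.

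Pyruvate enters through a carrier made of Mpc1 and Mpc2, both of which are needed for transport. Their log2 fold changes in the authors' deposited table were 0.14 (-0.46 to 0.74) for Mpc1 and 0.05 (-0.66 to 0.76) for Mpc2. These were among the least precise values of the set, at pooled totals of 233 and 121. For Mpc2 a log2 change of 1.33 would have been needed to reach the largest p that passed, although its interval lay within 2-fold. Mpc1 shared 42.4% of its windows with other transcripts, mostly the pseudogene Mpc1-ps, and 23.1% of its exon bases overlapped the gene 4930506C21Rik. Pcx, whose product makes oxaloacetate from pyruvate to refill the cycle, showed 0.15 (-0.44 to 0.74) on the same scale of the authors' deposited table. Its level was 84.3 per kb on coding transcript length, the lowest of the set. With the union of all annotated exons as length it was 72.1 per kb, above Mpc2 (16.5), Me3 (64.3) and Pdhx (68.3).

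The pyruvate dehydrogenase complex commits pyruvate to oxidation, and 0 of its 5 genes passed. Pdha1 and Pdhb encode the alpha and beta subunits of its decarboxylase, and the authors' deposited table gives log2 fold changes of -0.01 (-0.45 to 0.43) for Pdha1 and 0.11 (-0.20 to 0.42) for Pdhb. Dlat, the acetyltransferase core, had 0.26 (-0.16 to 0.67) there, and Pdhx, which anchors Dld to that core, -0.11 (-0.59 to 0.38), both from the authors' deposited table. Dld, the dihydrolipoamide dehydrogenase that also serves the alpha-ketoglutarate and branched-chain complexes, was given as 0.17 (-0.19 to 0.54) by the authors' deposited table. The sign of Pdha1 flips when fold changes are centred on the median of all genes (0.01). All 5 intervals lay within 2-fold. The subunit genes were unequal in level: Pdhb had 987 per kb and Pdha1 127 per kb on coding transcript length, and 387 and 97.2 per kb on exon union. Windows shared with other genes made up 11.5% of Pdhb and 11% of Pdha1. Of the exon bases of Pdha1, 16.1% overlapped the gene Map3k15, against 0% overlap for Pdhb.

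The kinases Pdk1, Pdk2 and Pdk3 switch the complex off by phosphorylation, and the phosphatase of Pdp1 switches it on again. The value furthest below 0 in the whole set was that of Pdk3, at -0.36 (-0.74 to 0.03), for which the authors' deposited table gives p = 0.071 and 0.78 once adjusted. From the authors' deposited table, Pdk2 had 0.19 (-0.38 to 0.76) and Pdp1 -0.12 (-0.56 to 0.33). Pdk1 is a textbook target of the hypoxia-inducible factor HIF, which raises it when oxygen is low. At a total of 704, its log2 fold change was 0.01 (-0.35 to 0.38) by the authors' deposited table, so a change of 1.5-fold lies outside its interval. The glucose transporter gene Slc2a1 and the hexokinase gene Hk2, also known HIF targets, had -1.81 and -1.72, and Pfkfb3, whose product activates glycolysis, -0.99, and all 3 passed per the authors' deposited table. These 3 were chosen after their values were seen. Ldha, a further known HIF target, had -0.47 and did not pass, per the authors' deposited table. The difference between Pdk1 and these genes was not tested.

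The promoter of Pdk1 is shown because the gene is known as a HIF target. It is given from RefSeq (GRCm38.p6, plus strand, chr2:71872974-71873243), 250 bases before the start of the gene and 20 after it, with the core letters of the HIF motif, ACGTG or GCGTG on either strand, in capitals.
Pdk1: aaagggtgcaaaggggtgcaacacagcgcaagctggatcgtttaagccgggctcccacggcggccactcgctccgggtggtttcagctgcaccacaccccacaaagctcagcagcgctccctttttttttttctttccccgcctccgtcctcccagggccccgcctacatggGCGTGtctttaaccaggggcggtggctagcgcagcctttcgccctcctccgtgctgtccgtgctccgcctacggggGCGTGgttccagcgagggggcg
The letters were found at 2 places, starting 78 and 2 bases before the gene's start. Such short letters are common. They occur in 62.1% of the same windows over the 8052 tested genes matched to a promoter, and in 19 of the 29 genes of the set that were matched (65.5%). The promoters of Pdk2 and Pdk3 held them too. Idh3a, Me2 and Pdp1 were not matched. The letters TGCGCA, the core of the motif of NRF1, a regulator of many mitochondrial genes, were found on either strand in 4 of the 29 windows (Glud1, Got2, Mdh2 and Mpc2), or 13.8% against 14.7% over tested genes. A longer form, GCGCA and GCGC with any base between, was found in 1, that of Sucla2, or 3.45% against 10.7%. AAGGTCA, the core letters bound by estrogen-related receptors, was found in 1, that of Got1, or 3.45% against 2.63%.

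Enzymes of the cycle itself mostly had intervals that lay within 1.5-fold. Of 11 genes, 0 passed, 6 were higher and 5 lower, and the median of the deposited log2 fold changes was 0.01. The derived 95% interval of 10 lay within 1.5-fold, a count that depends on position as well as width. Dlst was the exception. Across all tested genes 23.2% of intervals lay within 1.5-fold, and 28.6% of those with totals in the range of the set (121 to 10463). For the whole set the share was 59.4%, with 31 of 32 genes within 2-fold, Me2 being the exception. The set was also counted more precisely than the genes in that range. Its median total was 877 against 415, and its median derived standard error 0.19 against 0.27. How far precision accounts for these shares was not tested.

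Dlst was the cycle gene with the lowest p. It encodes the succinyltransferase core of the alpha-ketoglutarate dehydrogenase complex and lies on chromosome 12 from 85110833 to 85134845 (GRCm38). The authors' deposited table puts its log2 fold change at 0.39 (0.10 to 0.68), or 1.31-fold, with p = 0.0083 and 0.35 once adjusted, so it did not pass over all genes. The other genes of that complex had smaller values, with 0.07 (-0.36 to 0.49) for the decarboxylase gene Ogdh and, as above, 0.17 for Dld per the authors' deposited table. The differences between the subunits were not tested.

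Citrate synthase, Cs, which starts the cycle, had a total of 2586 and a change of -0.04 (-0.30 to 0.22) on the log2 scale per the authors' deposited table. Idh3a, Idh3b and Idh3g, the subunits of the NAD-dependent isocitrate dehydrogenase, stood at -0.07, -0.12 and -0.06 in the authors' deposited table, all 3 with intervals within 1.5-fold. Sucla2 and Suclg2, the ATP- and GTP-forming beta subunits of succinyl-CoA ligase, had 0.01 and 0.07, and their shared alpha subunit Suclg1 had 0.12 in the authors' deposited table. Suclg2 shared 25.6% of its windows with other transcripts, mostly those of the predicted gene Gm15163, so its count is uncertain. Fumarase, Fh1, was listed with 0.08 (-0.29 to 0.44) by the authors' deposited table. Mdh2, the malate dehydrogenase that closes the cycle, had the narrowest interval of the set, -0.06 (-0.31 to 0.19), at a total of 5140 in the authors' deposited table. A log2 change of 0.47 would have been enough for Mdh2 to pass.

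Succinate dehydrogenase, which joins the cycle to the respiratory chain, is not in the set and was examined beside it. Its 4 subunit genes Sdha, Sdhb, Sdhc and Sdhd had log2 fold changes of 0.09, 0.05, -0.23 and -0.25 in the authors' deposited table. Taken with the 11 cycle genes and Dld they make 16 genes, of which 9 were higher and 7 lower and 0 passed. The intervals of all 16 lay within 2-fold and those of 13 within 1.5-fold.

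Idh1 and Idh2 make NADPH from isocitrate, Idh1 in the cytosol and Idh2 in mitochondria. Idh1, on chromosome 1 from 65158616 to 65186500, had the highest total of the set (10463) per the authors' deposited table, with a change of 0.12 (-0.25 to 0.50) on the log2 scale. Idh2 differed by -0.31 (-0.68 to 0.06), with p = 0.10 and 0.85 once adjusted, per the authors' deposited table. Idh1 led the set in level under both lengths, with 4565 per kb on coding transcript length and 3776 on exon union. Mdh2 came next, with 3530 and 1443 per kb. Idh3a, the catalytic subunit of the NAD enzyme, had 420 and 206 per kb, so Idh1 exceeded it 10.9-fold and 18.3-fold.

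**Figure D3:**
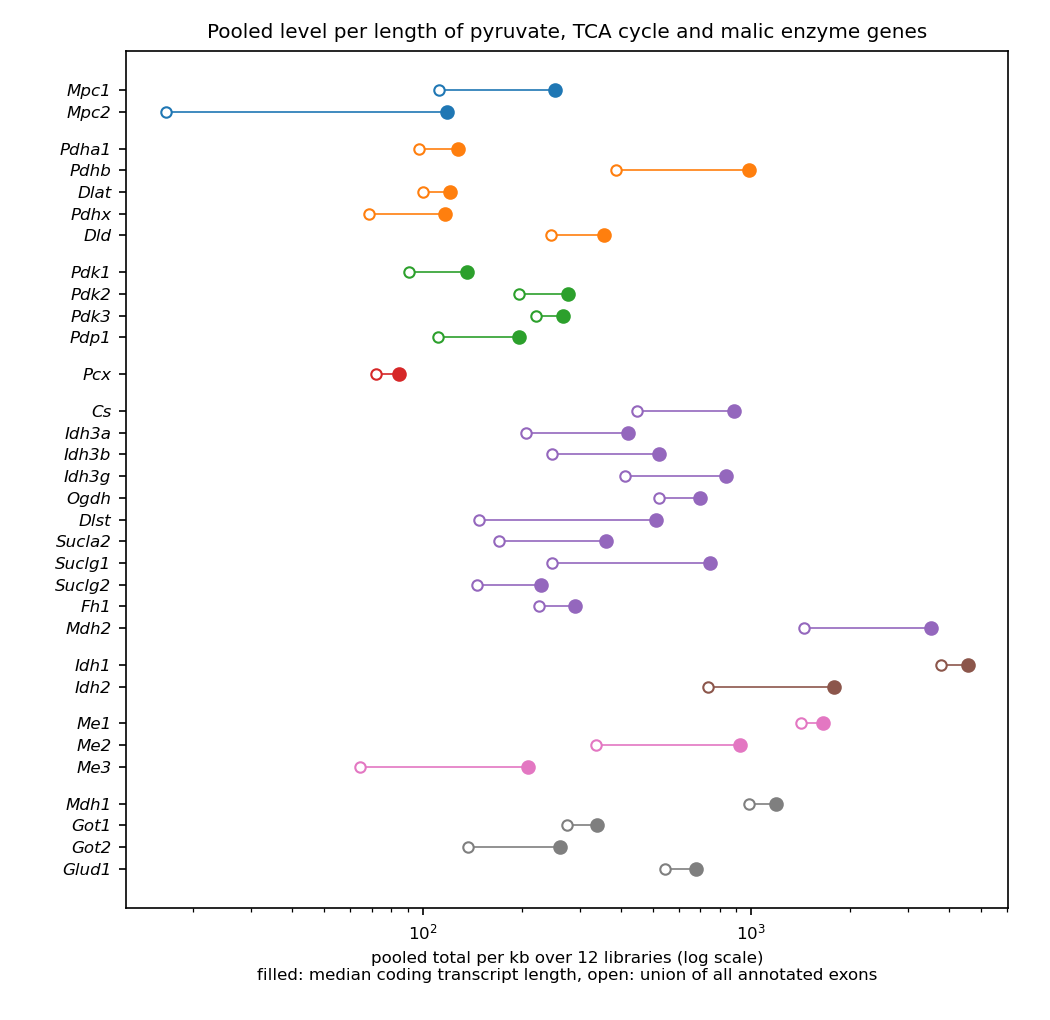
Pooled total per kb over the 12 libraries (x axis, log scale) for each of the 32 genes (y axis, grouped and coloured by role). Filled circles use the median coding transcript length and open circles the union of annotated exons, and the line between them shows how far the level depends on length. Idh1 and Mdh2 are highest under both lengths.

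The malate-aspartate shuttle moves reducing power from the cytosol into mitochondria through a pair of malate dehydrogenases and a pair of aspartate aminotransferases. The cytosolic enzymes Mdh1 and Got1 are given by the authors' deposited table with -0.17 (-0.60 to 0.25) and 0.31 (-0.06 to 0.68) on the log2 scale. Got2, the mitochondrial aminotransferase, had 0.06 (-0.27 to 0.40) per the authors' deposited table, and 32.3% of its windows occur in other transcripts, mostly of the predicted gene Gm10874. Glud1, which turns glutamate into alpha-ketoglutarate, had 0.13 (-0.14 to 0.41), again from the authors' deposited table. None of these 4 genes passed (0). The carriers of the shuttle are listed among related genes: Slc25a11, which exchanges alpha-ketoglutarate for malate, stood at -0.26, and the aspartate-glutamate carriers Slc25a12 and Slc25a13 at -0.11 and -0.40 per the authors' deposited table, and 0 of these 3 passed.

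Beside the set, 41 related genes chosen by role were examined, of which 36 were in the table and 34 had an adjusted p. None passed (0), where 0.529% of all tested genes did. Of the 34, 13 were higher and 21 lower, or 38.2% higher against 46.8% of all tested genes. Their median log2 fold change was -0.09 against -0.02. At an unadjusted p under 0.05 there were 2, both lower, or 5.88% against the 7.02% of all tested genes. Ldha, the lactate dehydrogenase subunit that favours lactate formation, had a total of 91128 and a change of -0.47 (-0.92 to -0.03) on the log2 scale, with p = 0.037 and 0.66 once adjusted, per the authors' deposited table. Ldhb, the subunit that favours pyruvate, had 0.22 (-0.18 to 0.61) per the authors' deposited table, and the difference between the subunits was not tested. Windows shared with other transcripts made up 17% of Ldha and 20.3% of Ldhb. Acss2, which makes acetyl-CoA from acetate in the cytosol, had -0.58 with p = 0.0495 and 0.71 once adjusted, and Acly, which makes it from citrate, had -0.23 (-0.56 to 0.10), per the authors' deposited table.

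**Figure D4:**
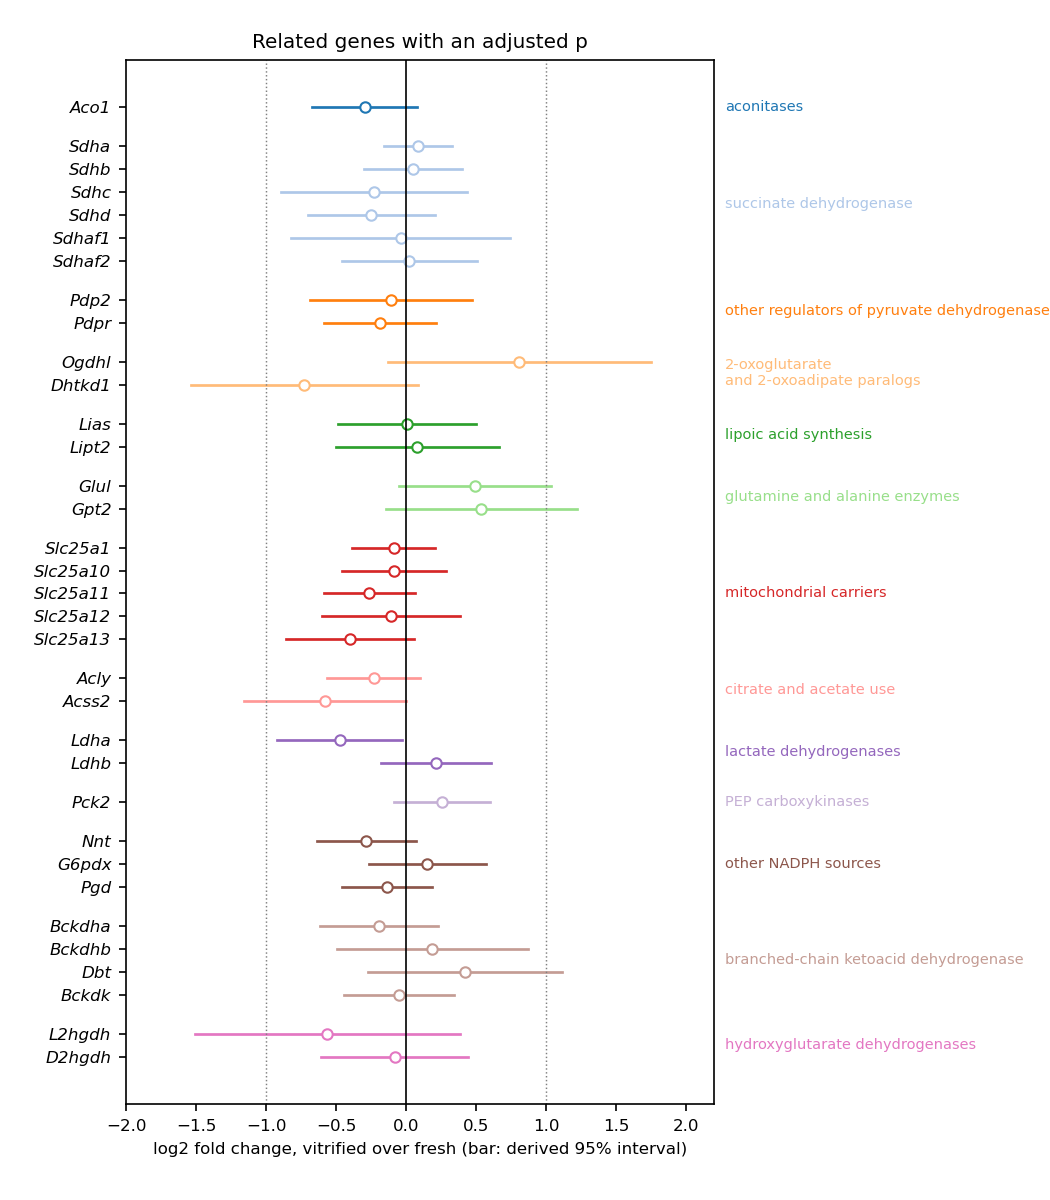
Log2 fold change of vitrified over fresh follicles (x axis) for the 34 related genes with an adjusted p (y axis, grouped by role). Circles are deposited fold changes, all open because 0 passed, bars are derived 95% intervals, and dotted lines mark 2-fold. Ldha and Acss2 are the 2 genes whose bars end below 0.

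Other regulators of pyruvate dehydrogenase gave no call. Pdp2, a second phosphatase, stood at -0.11 and its regulatory subunit gene Pdpr at -0.19 in the authors' deposited table, while Pdk4, a kinase induced by fasting in many tissues, was listed without an adjusted p at a total of 43.1. Lias and Lipt2, enzymes of the synthesis of the lipoic acid that Dlat and Dlst carry, had 0.01 and 0.08 in the authors' deposited table. Lipt1, which attaches it to these proteins, had 1.42 (-0.58 to 3.41) at a total of 24.8 and no adjusted p, per the authors' deposited table. Per the authors' deposited table, Ogdhl, a paralog of Ogdh, had 0.81 (-0.13 to 1.75) and Dhtkd1, a further relative, -0.73 (-1.54 to 0.09). Neither interval lay within 2-fold. Pck2, which makes phosphoenolpyruvate from oxaloacetate in mitochondria, had 0.26 (-0.08 to 0.60) per the authors' deposited table.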

How the data were processed

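RNA was sequenced from 12 single follicles with a Smart-seq protocol, per the labels' protocols. Per the submitters' processing notes, Bowtie2, HISAT2, Partek and DESeq2 and the build mm10 were used, with no role, order or version. The sources used here do not give how reads were counted, whether strand was used or which test gave the p-values. Each gene has, per the file headers of the deposited table, a log2 fold change, the same as a signed fold, a p-value with its step-up adjustment, and a total count over libraries. Whether totals were normalised is not given, and 0.237% are whole within 0.001. An adjusted p is missing for the 843 genes with totals up to 59.4. The planned fit of counts per follicle could not be made, and the deposited comparison was used, as the design allowed.

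Standard errors and 95% intervals were derived with Python 3.11.15 and SciPy 1.17.1. Each used a log2 fold change and its p, read as a two-sided normal test. This step was run on data simulated under the same normal form. That run checks the arithmetic only, and cannot show whether the deposited p-values came from a normal test. The derived standard errors hold counting error and the spread between follicles together. If follicles of a group shared animals, the p-values may be too small. If the same animals gave follicles to both groups, they may instead be too large. Which of these holds is not given. Lengths, exon overlaps and shared windows (50 bases, every 25) came from GENCODE mouse release 21 (GRCm38, the assembly called mm10). The first-listed RefSeq promoter of each gene was searched. The genes, the related list, the markers and the rule for naming them (each gene of the set, and related genes by p or shared reaction) were chosen with earlier results of these data known. Slc2a1, Hk2 and Pfkfb3 were chosen after their values were seen. A few genes of the planned related list are not reported here.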

Additional observations from a re-analysis of the deposited data

How the results depend on the processing

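Of the 32 genes, 1 passed at an adjusted p of up to 0.10, with no filter on totals and with totals of at least 120, in each case Me2, whose adjusted p ranged from 0.0033 to 0.62 over all settings. With derived statistics placed on a t distribution with 10 degrees of freedom, the count was 0 for the set and 0 for all genes. The main counts were 1 and 58. The lowest adjusted p over all genes was then 0.064. At an unadjusted p under 0.05 there were then 498 of the 10963 tested genes, and 2 of the 32 in the set. Heavier tails were the only change made there. Related genes gave 0 in every setting. Centring on the median of all genes turned Pdha1 from -0.01 to 0.0096 and no other gene of the set, and moved the median of the set from 0.07 to 0.09. No paired analysis was possible because the table carries no column per follicle, and for the same reason no replicate could be left out. The log2 change needed to pass had a median of 0.70 over the set and was above 1 for 4 genes, Mpc1, Mpc2, Pcx and Pdk2. The part of depth in this was not tested. Levels per kb depend on the length used, an alternative chosen after seeing the data.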

Other observations

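Enzymes that use the same cofactors as the set gave no call either. The branched-chain ketoacid dehydrogenase complex shares Dld with pyruvate dehydrogenase, and its genes Bckdha, Bckdhb and Dbt had log2 fold changes of -0.20, 0.19 and 0.42 in the authors' deposited table, with -0.05 for its kinase gene Bckdk. Bckdha shared 59.2% of its windows with other transcripts, mostly those of B3gnt8, so its count is uncertain. Other sources of NADPH were G6pdx at 0.15, Pgd at -0.13 and Nnt, the mitochondrial transhydrogenase, at -0.28 in the authors' deposited table. Enzymes of glutamine and alanine metabolism had wider intervals than these NADPH genes. Glutamine synthetase, Glul, stood at 0.49 (-0.05 to 1.03) and the alanine aminotransferase gene Gpt2 at 0.54 (-0.14 to 1.22), per the authors' deposited table.

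The citrate carrier gene Slc25a1 and the dicarboxylate carrier gene Slc25a10 each stood at -0.09 in the authors' deposited table. With the 3 shuttle carriers this made 5 of 5 mitochondrial carriers of the related list lower, with 0 past the threshold and all 5 intervals holding 0. Of all 10963 tested genes, 5837 were lower. Whether the shared direction of these 5 differs from that background was not tested.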
